A study of Homo sapiens with 15 samples.

Results

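The genes described here are FOS, FOSB, FOSL1 and FOSL2 of the FOS family, JUN, JUNB and JUND of the JUN family, the related factor ATF3, the zinc finger factor EGR1, and IER3, an early response gene that encodes a regulator of cell survival and not a transcription factor. They were taken by gene name from the deposited table, which held all 10 of them among 58735 genes. A549 cells, an established line from a human lung adenocarcinoma, had received airborne fine particles (PM2.5), at a dose of 100 µg/mL, or an equal volume of dimethyl sulfoxide (DMSO), and were left for 24 h. The particles came under the 4 codes CDSUM, CDWIN, CQSUM and CQWIN, and the sources used here do not explain these codes. The 5 groups had 3 libraries each, 15 in all, and every comparison with DMSO rests on the same 3 DMSO libraries. All groups share the line and the 24 h of culture. Nothing in the labels shows that the 3 libraries of a group are separate cultures, so p-values measure only the spread between libraries, which may be technical.

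AP-1 is a dimer of basic leucine zipper proteins. JUN proteins pair with each other or with FOS proteins, whereas FOS proteins need a JUN partner, and the dimers bind a short palindromic DNA element in the promoters and enhancers of genes for cytokines, proteases and growth control. FOS, FOSB, JUN, EGR1, ATF3 and IER3 belong to the immediate early genes, which growth factors, stress and cytokines switch on through MAP kinases and serum response factor without new protein synthesis, and whose transcripts usually decay quickly. FOSL1 and FOSL2 encode FOS-related proteins that lack the strong activation domains of FOS and FOSB and usually appear later and stay longer, and in airway epithelium AP-1 is known as a driver of the response to oxidants and particles.

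The libraries held 17583532 to 19216323 reads in genes. The labels call the line type II alveolar epithelium. The epithelial keratins KRT8, KRT18 and KRT7 were abundant in all groups, but of 10 type II markers 6 had under 10 reads in every library, and the surfactant genes SFTPA1 and SFTPA2 had none in any. Of 6 leukocyte markers 5 had under 10 reads in every library, and PTPRC and CD3E were at 0, while CD14 had 112 to 258 reads. The summed epithelial markers were lower in the exposed libraries, at 6086 to 8276 read counts scaled to library size (CPM), against 12840 to 16070 in DMSO. That sum is carried by KRT8, KRT7 and KRT18, while KRT19 averaged 400.7 to 435.2 CPM in the exposed groups and 254.0 CPM in DMSO, and EPCAM 1.79 to 3.63 CPM in the exposed groups and 0.923 CPM in DMSO. Counts depended on gene length in a way that moved with the groups. Per doubling of length, log2 counts changed by −0.162 to −0.0743 in CDSUM and CDWIN, by −0.112 to 0.0532 in CQSUM and by −0.116 to 0.211 in CQWIN, against 0.113 to 0.23 in DMSO. Counts depended on GC content too. Per 10 percentage points of GC, log2 counts changed by 0.133 to 0.201 in CDSUM, against 0.156 to 0.338 in DMSO. The change was −0.178 to −0.119 in CQSUM and −0.208 to −0.0975 in CQWIN. In CDWIN 1, 2 and 3 it was −0.176, 0.128 and −0.216. With TMM scaling of the library sizes, which is used for the CPM values here, the median log2 fold change over DMSO of the 15565 genes tested was −0.25 in CDSUM, −0.11 in CDWIN, −0.0042 in CQSUM and 0.02 in CQWIN. With the size factors of DESeq2 it was −0.10, −0.04, 0.08 and 0.08 in the same order, and the share of called genes that were higher in CDSUM was 45.1%, against 32.9% with TMM, and in CQSUM 52.3%, against 42.2%. With CQWIN 2 left out, the CDSUM median was −0.04. Changes under about this size are to be read relative to these medians.

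Over the mean of the 4 codes, particle-exposed cells held more FOSB, EGR1, ATF3, IER3 and FOS RNA and less FOSL2 RNA than DMSO cells. FOSL1, JUNB and JUND passed the test under no code. JUN RNA was also higher over the mean, by a small margin that was called in 13 of 23 alternative settings. In edgeR's quasi-likelihood test with Benjamini-Hochberg adjustment over all genes, called at an adjusted p under 0.05, 6 of the 10 genes were higher and 1 lower in CDSUM. In CDWIN 4 were higher and 1 lower, in CQSUM 6 were higher and 1 lower, and in CQWIN 2 were higher and 1 lower. The background was large. Of all genes tested, 15.3% were called higher and 31.2% lower in CDSUM, 18.4% higher and 23.3% lower in CDWIN, 13.7% higher and 18.8% lower in CQSUM, and 11.6% higher and 15.8% lower in CQWIN. FOSB, IER3 and FOSL2 were called under all 4 codes, ATF3 and EGR1 under CDSUM, CDWIN and CQSUM, and FOS and JUN under CDSUM and CQSUM. The median log2 fold change of the 10 genes was 1.22 in CDSUM, 0.50 in CDWIN, 0.99 in CQSUM and 0.64 in CQWIN. All 10 genes passed the filter on low counts, but FOSB and EGR1 passed it only through the exposed groups. In DMSO, 1 of 3 libraries reached the filter's level of 0.54 CPM for FOSB and 2 of 3 for EGR1, so the counts and medians over the 10 genes carry no weight of their own. For the mean of the 4 PM2.5 groups against DMSO, the same 6 genes as in CDSUM were higher and FOSL2 was lower, with a background of 18.3% higher and 27.1% lower.

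**Figure D1:**
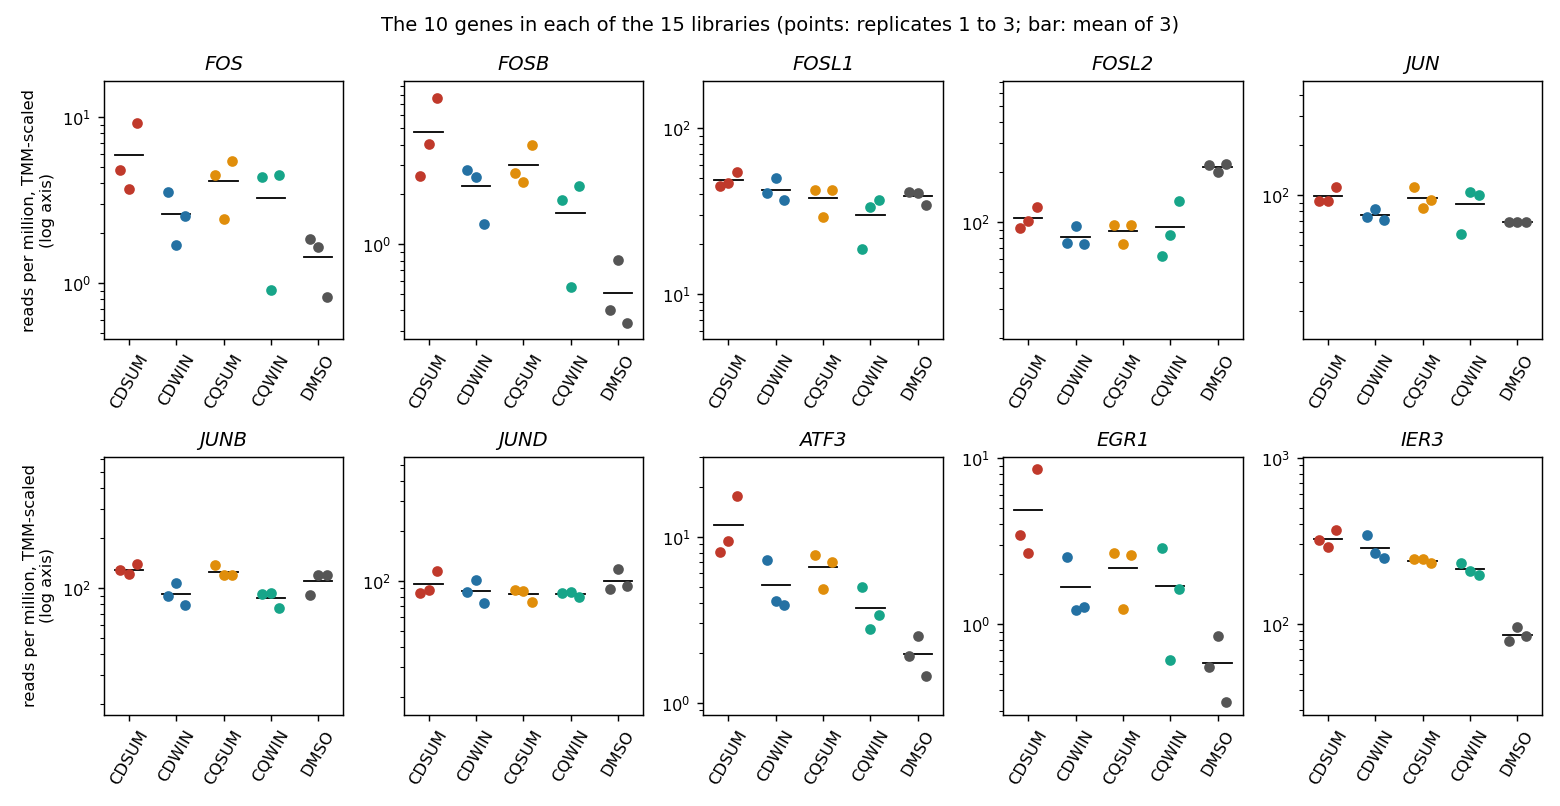
TMM-scaled CPM (log axis, spanning the same ratio in every panel) of the 10 genes in each library, with the PM2.5 groups left of DMSO, points for replicates 1 to 3 and a bar for their mean. All 12 exposed libraries lie above the 3 DMSO libraries for ATF3 and IER3 and below them for FOSL2.

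**Figure D2:**
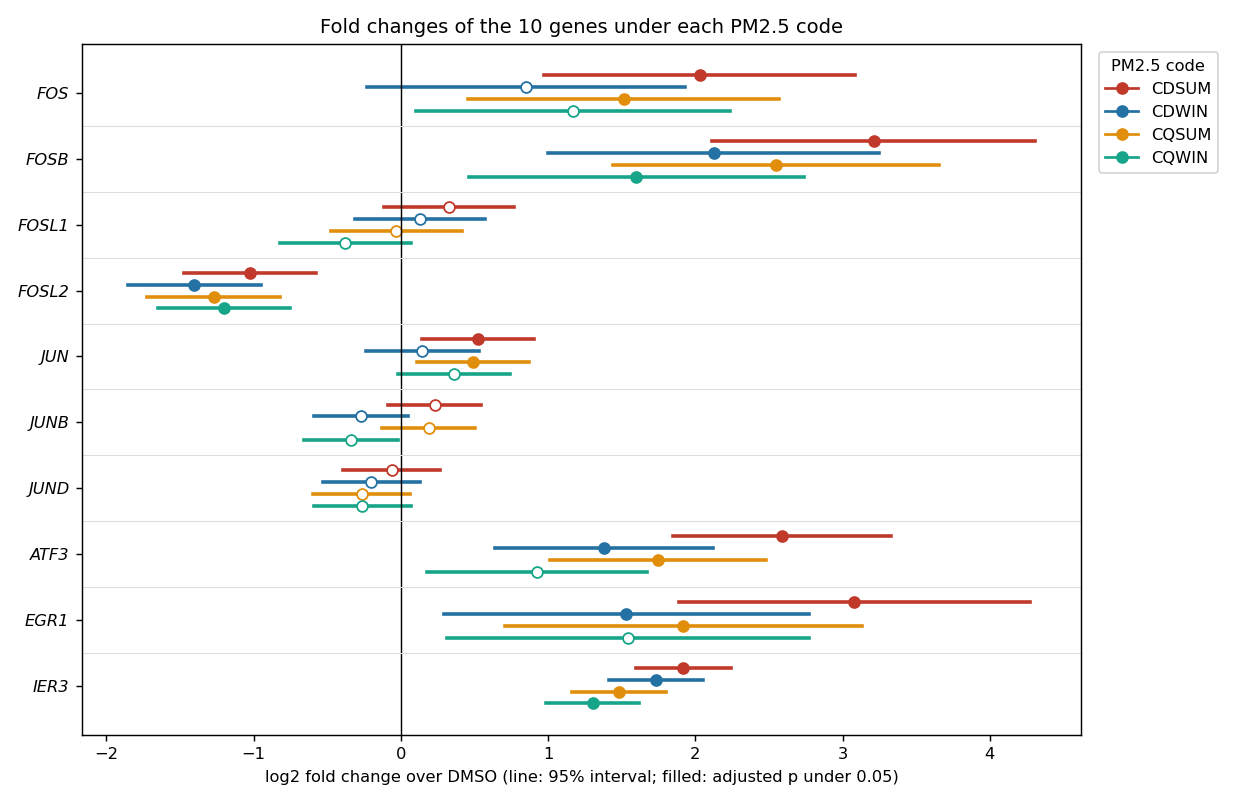
Log2 fold change over DMSO of each gene under the 4 PM2.5 codes, with lines for 95% intervals and filled points for an adjusted p under 0.05. FOSB, FOSL2 and IER3 are filled under all 4 codes, and FOSL1, JUNB and JUND under none.

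FOS (ENSG00000170345, chromosome 14, 75278774 to 75282230, plus strand, GRCh38) encodes the founding FOS protein, the classic early partner of JUN. It had 4.79, 3.70 and 9.18 CPM in the CDSUM libraries, 3.52, 1.70 and 2.55 in CDWIN, 4.49, 2.43 and 5.40 in CQSUM and 4.35, 0.912 and 4.48 in CQWIN, against 1.85, 1.66 and 0.82 in DMSO. These are low counts, 17 to 37 reads per library in DMSO and 18 to 169 in the exposed libraries. The exposed libraries lay above all DMSO libraries in 10 of 12 cases, and the exceptions were CDWIN 2 and CQWIN 2. FOS rose 4.08-fold in CDSUM (log2 fold change 2.03 ± 0.50, SE; adjusted p = 0.00377) and in CQSUM by 1.51 ± 0.50 on the log2 scale (adjusted p = 0.0283). The CQSUM call held in 20 of 24 alternative settings (adjusted p 9.23e-05 to 0.116) and was lost without CQSUM 1, CQSUM 3, DMSO 2 or DMSO 3. The log2 differences in CDWIN, 0.85 ± 0.52 (adjusted p = 0.198), and in CQWIN, 1.17 ± 0.51 (adjusted p = 0.0934), did not pass. With CQWIN 2 left out the CQWIN value was 1.75 and passed (adjusted p = 0.0106, range over 24 alternative settings 0.00471 to 0.276). The CQWIN difference was called in 3 of these 24. Leaving CQWIN 2 out also moved the median log2 fold change of all genes in CQWIN from 0.02 to 0.13. With CDSUM 3 left out the CDSUM value was 1.56 (adjusted p = 0.026, the highest of the 24 settings, of which the lowest gave 4.37e-10). The FOS promoter is shown because FOS rose together with EGR1 but does not share its serum response motifs within this window. Bases outside the window were not searched for motifs. It spans chr14:75278578-75278877 on the plus strand, from 250 bases before to 50 bases after the start in RefSeq (GRCh38.p14), and the capitals mark the GCGTG core of the aryl hydrocarbon receptor element, read here on the other strand.
FOS: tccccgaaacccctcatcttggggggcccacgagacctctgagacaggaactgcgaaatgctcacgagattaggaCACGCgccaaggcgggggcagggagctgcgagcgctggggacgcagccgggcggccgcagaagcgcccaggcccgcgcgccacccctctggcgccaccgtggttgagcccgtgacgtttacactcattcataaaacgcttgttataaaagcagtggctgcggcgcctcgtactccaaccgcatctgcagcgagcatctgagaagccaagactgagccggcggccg

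FOSB (ENSG00000125740, chromosome 19, 45467995 to 45475179, plus strand), the close relative of FOS, gave 2.57, 4.03 and 7.66 CPM in CDSUM, 2.83, 2.56 and 1.33 in CDWIN, 2.68, 2.37 and 3.96 in CQSUM and 1.86, 0.557 and 2.24 in CQWIN, against 0.4, 0.802 and 0.338 in DMSO. Only CQWIN 2 fell within the DMSO range, and the other 11 exposed libraries were above it. FOSB rose under all 4 codes, with log2 fold changes of 3.21 ± 0.52 in CDSUM (9.26-fold, adjusted p = 0.000364), 2.12 ± 0.54 in CDWIN (adjusted p = 0.00442), 2.55 ± 0.53 in CQSUM (adjusted p = 0.00189) and 1.60 ± 0.54 in CQWIN (adjusted p = 0.0354). The CQWIN call held in 17 of 23 alternative settings (adjusted p 0.00153 to 0.129) and was lost without CQWIN 1, CQWIN 3, DMSO 1 or DMSO 3, with log2 fold changes of 1.37 to 1.46. The DMSO level rests on 7 to 15 reads per library, which leaves the size of these folds uncertain: the 95% interval of the CDSUM value runs from 2.11 to 4.31. FOSB lies wholly within ERCC1 on the opposite strand, with no shared exonic base, and ERCC1 held 2124 to 2843 reads per library. Whether the counting used strand is not given, and a part of ERCC1 reads in the FOSB counts was not tested. The FOSB promoter is shown beside that of FOS because FOSB had the largest fold change of the family. It spans chr19:45467746-45468045 on the plus strand, and the capitals again mark the GCGTG core on the other strand.
FOSB: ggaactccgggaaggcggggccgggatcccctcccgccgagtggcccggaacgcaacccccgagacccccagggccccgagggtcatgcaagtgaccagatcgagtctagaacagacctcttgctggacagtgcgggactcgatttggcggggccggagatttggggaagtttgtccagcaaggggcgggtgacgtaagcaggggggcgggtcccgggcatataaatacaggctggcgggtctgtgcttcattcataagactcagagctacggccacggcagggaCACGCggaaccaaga

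FOSL2 (ENSG00000075426, chromosome 2, 28392448 to 28417312, plus strand) encodes FRA2, a late and long-lived FOS-related protein. With TMM scaling, no length correction and all 15 libraries it was the only member called lower than DMSO. It had 92.0, 101.5 and 122.6 CPM in CDSUM, 75.3, 94.3 and 73.9 in CDWIN, 96.8, 73.4 and 96.7 in CQSUM and 62.6, 83.7 and 134.1 in CQWIN, against 221.3, 200.3 and 222.8 in DMSO. All 12 exposed libraries lay below all 3 DMSO libraries, and the nearest was CQWIN 3. FOSL2 fell by 1.03 ± 0.21 in CDSUM (adjusted p = 0.00129), by 1.40 ± 0.22 in CDWIN (adjusted p = 0.000221), by 1.27 ± 0.21 in CQSUM (adjusted p = 0.000528) and by 1.20 ± 0.21 in CQWIN (adjusted p = 0.000796), all on the log2 scale. FOSL2 is the longest of the members at 7157 bases, so the length slopes move with it. With the length trend removed the log2 fold changes of FOSL2 were −0.78 in CDSUM, −1.22 in CDWIN, −1.17 in CQSUM and −1.17 in CQWIN, and with the GC and length trends both removed they were −0.81, −0.97, −0.89 and −0.93 in the same order, all called. The FOSL2 promoter, chr2:28392608-28392907 on the plus strand, is shown because, of 8 members with promoter sequence, only FOSL2 had a match to the AP-1 element. The capitals mark that match, TGACTCA. The match begins 5 bases after the start in RefSeq, which lies downstream of the gene start given above.
FOSL2: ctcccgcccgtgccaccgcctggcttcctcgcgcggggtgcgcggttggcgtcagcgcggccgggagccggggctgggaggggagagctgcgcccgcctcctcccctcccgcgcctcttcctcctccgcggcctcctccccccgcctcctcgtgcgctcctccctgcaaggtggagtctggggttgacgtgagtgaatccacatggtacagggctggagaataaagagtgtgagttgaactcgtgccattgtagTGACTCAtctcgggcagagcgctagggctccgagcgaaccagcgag

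FOSL1 (ENSG00000175592, chromosome 11, 65892049 to 65900573, minus strand) encodes FRA1, which is abundant in many carcinoma lines. Its values were 44.6, 46.7 and 54.5 CPM in CDSUM, 40.4, 49.8 and 37.0 in CDWIN, 42.1, 29.2 and 42.2 in CQSUM and 18.8, 33.6 and 37.0 in CQWIN, against 41.0, 40.7 and 34.5 in DMSO. The CDSUM libraries were all above the DMSO range, but the other groups overlapped it. None of the 4 differences passed. The log2 fold change was 0.33 ± 0.21 in CDSUM (95% interval −0.11 to 0.77), 0.13 ± 0.21 in CDWIN, −0.03 ± 0.21 in CQSUM and −0.38 ± 0.21 in CQWIN. The CDSUM value ranged from −0.15 to 0.56 over the 24 alternative settings and was called in 3. The CQWIN value was called lower in 1 of these settings, with CDWIN 2 and CQWIN 3 both left out (adjusted p = 0.0465).

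The make-up of the FOS family transcripts also differed between the groups. Levels of different genes were compared per length, in the deposited fragments per kilobase of transcript, scaled for depth by the authors (FPKM). FOSL2 made up 34.1% ± 0.7 of the summed FOS family FPKM in CDSUM, 32.4% ± 1.0 in CDWIN, 36.4% ± 1.5 in CQSUM and 42.9% ± 3.8 in CQWIN, against 58.8% ± 3.5 in DMSO (SD, n = 3 each). The FOSL1 share was 59.9% ± 2.1 in CDSUM, 64.1% ± 0.9 in CDWIN, 58.4% ± 0.8 in CQSUM and 52.4% ± 6.2 in CQWIN, against 40.2% ± 3.1 in DMSO. No exposed library overlapped the DMSO range of either share. FOS, for all its rise, reached 6.59% of the family at most, in CQWIN 1, against 1.07% at most in DMSO, and FOSB reached 2.75% at most, in CDSUM 3, against 0.288% at most in DMSO. The summed FPKM of the family was 44.7 ± 5.7 in CDSUM, 34.5 ± 5.9 in CDWIN, 34.0 ± 6.6 in CQSUM and 29.2 ± 8.8 in CQWIN, against 47.7 ± 1.9 in DMSO. No test was run on these shares, which follow from the same counts as the fold changes and carry the length trend, since FOSL2 has 7157 bases and FOSL1 1887. How much of the shift that trend makes up was not tested on the shares.

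**Figure D3:**
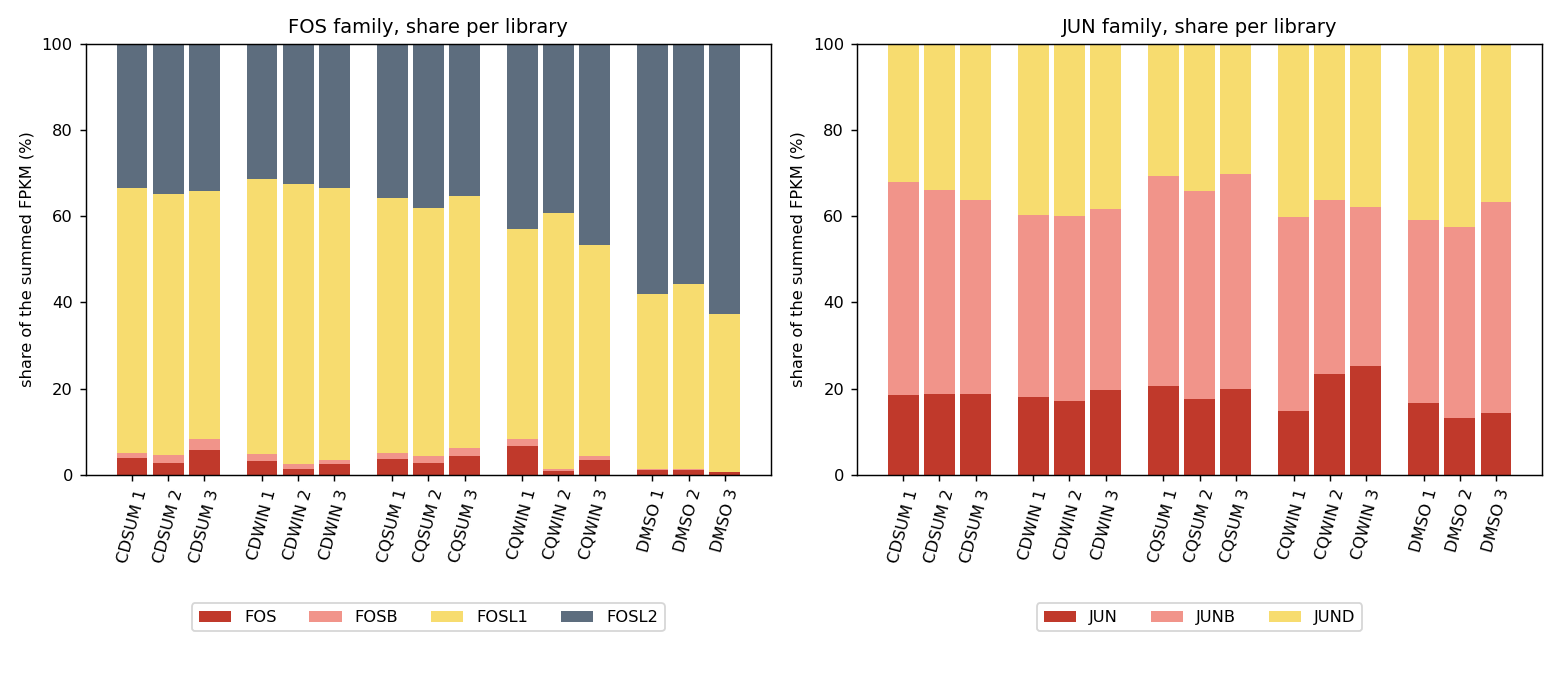
Share of the summed FPKM of the FOS family (left) and the JUN family (right) taken by each member in every library, with the PM2.5 groups left of DMSO. In the FOS family FOSL2 takes 31.4 to 46.7% in the exposed libraries and 55.8 to 62.6% in DMSO, and FOS and FOSB stay thin bands throughout.

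JUN (ENSG00000177606, chromosome 1, 58780788 to 58784327, minus strand) encodes the main activating partner of FOS proteins and is a target of the kinases JNK. It gave 92.3, 92.5 and 112.0 CPM in CDSUM, 74.1, 82.9 and 71.4 in CDWIN, 112.5, 84.0 and 93.5 in CQSUM and 58.9, 104.9 and 101.1 in CQWIN, against 68.7, 68.7 and 69.0 in DMSO. The exposed libraries were above the narrow DMSO range in 11 of 12 cases, and CQWIN 1 was below it. JUN rose by 0.52 ± 0.18 on the log2 scale in CDSUM (1.44-fold, adjusted p = 0.0248) and by 0.49 ± 0.18 in CQSUM (adjusted p = 0.0453). Its log2 differences of 0.15 ± 0.18 in CDWIN (adjusted p = 0.541) and 0.36 ± 0.18 in CQWIN (adjusted p = 0.148) did not pass. The CDSUM call of JUN held in 18 of 24 alternative settings (adjusted p 3.42e-05 to 0.0999). It was lost with CDSUM 3 left out (0.43, adjusted p = 0.0996) and with the length trend removed (0.40, adjusted p = 0.0999). It was also lost with the GC and length trends removed and without DMSO 1, DMSO 2 or DMSO 3. The CQSUM call of JUN held in 14 of 24 alternative settings.

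JUNB (ENSG00000171223, chromosome 19, 12791496 to 12793315, plus strand) and JUND (ENSG00000130522, chromosome 19, 18279760 to 18281622, minus strand) encode the other JUN proteins, of which JUND is known for its steady expression. JUNB had 127.6, 120.7 and 139.5 CPM in CDSUM, 89.1, 106.6 and 78.9 in CDWIN, 136.8, 119.4 and 120.5 in CQSUM and 92.1, 93.0 and 76.1 in CQWIN, against 90.6, 119.6 and 120.5 in DMSO. The 3 CDSUM libraries and CQSUM 1 were above all DMSO libraries and CQWIN 3, CDWIN 1 and CDWIN 3 below all of them, with the rest inside the DMSO range, and no comparison of JUNB with DMSO passed. Its log2 fold changes were 0.23 ± 0.15 in CDSUM, −0.27 ± 0.15 in CDWIN, 0.19 ± 0.15 in CQSUM and −0.34 ± 0.15 in CQWIN. JUNB lies within the extent of HOOK2 on the opposite strand and shares 259 exonic bases with it, where HOOK2 had 147 to 306 reads per library. JUND varied least of the members, by a factor of 1.6 between the highest and the lowest of the 15 libraries, with 73.5 to 114.0 CPM in the exposed libraries and 89.5 to 117.5 in DMSO. The exposed libraries lay below all DMSO libraries in 10 of 12 cases, and the exceptions were CDSUM 3 and CDWIN 2. CQSUM and CQWIN thus did not overlap with DMSO. Its log2 fold changes lay between −0.27 and −0.06, and none passed. Both genes are short, at 1820 bases for JUNB and 1863 bases for JUND, so the length slopes move with them too. With the length trend removed JUND was called lower in CDSUM (−0.53), CDWIN (−0.56) and CQSUM (−0.47), and JUNB in CDWIN (−0.64) and CQWIN (−0.47). Over the 24 alternative settings JUNB was called higher in 3 in CDSUM (up to 0.46) and in 1 in CQSUM. In CDWIN it was called lower in 2. With the GC and length trends both removed neither gene was called against DMSO under any code.

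Within the JUN family the make-up shifted less than within the FOS family. JUN made up 18.6% ± 0.2 of the summed FPKM in CDSUM, 18.3% ± 1.2 in CDWIN, 19.3% ± 1.6 in CQSUM and 21.1% ± 5.6 in CQWIN, against 14.7% ± 1.7 in DMSO, and only CQWIN 1, at 14.8%, overlapped the DMSO range of 13.1 to 16.6%. JUNB had the largest mean share in each group, from 40.8% ± 4.1 in CQWIN to 49.0% ± 0.8 in CQSUM, with 45.2% ± 3.3 in DMSO. The summed JUN family FPKM was 155.5 ± 14.6 in CDSUM, 116.6 ± 19.6 in CDWIN, 139.6 ± 12.7 in CQSUM and 114.5 ± 11.0 in CQWIN, against 125.2 ± 18.8 in DMSO. The CDSUM libraries, from 146.3, were above the highest DMSO library, at 144.6, and the other groups overlapped with DMSO.

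ATF3 (ENSG00000162772, chromosome 1, 212565334 to 212620777, plus strand), a stress-induced factor that pairs with JUN proteins and often represses its targets, gave 8.08, 9.47 and 17.6 CPM in CDSUM, 7.27, 4.08 and 3.88 in CDWIN, 7.70, 4.85 and 7.04 in CQSUM and 4.97, 2.79 and 3.38 in CQWIN, against 1.9, 2.51 and 1.45 in DMSO. All 12 exposed libraries were above all DMSO libraries, and CDSUM 3 stood far above the rest. ATF3 rose by 2.59 ± 0.35 on the log2 scale in CDSUM (adjusted p = 0.000119), by 1.38 ± 0.35 in CDWIN (adjusted p = 0.00482) and by 1.75 ± 0.35 in CQSUM (adjusted p = 0.00158). In CQWIN the log2 difference of 0.92 ± 0.35 missed the threshold (adjusted p = 0.06), although its libraries did not overlap with DMSO, and it was called in 8 of 24 alternative settings.

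EGR1 (ENSG00000120738, chromosome 5, 138465490 to 138469315, plus strand) encodes a zinc finger factor that is induced through serum response factor. It had 3.47, 2.67 and 8.58 CPM in CDSUM, 2.54, 1.22 and 1.27 in CDWIN, 2.68, 1.24 and 2.62 in CQSUM and 2.88, 0.608 and 1.62 in CQWIN, against 0.55, 0.855 and 0.338 in DMSO. In 11 of 12 cases an exposed library was above all DMSO libraries, the exception being CQWIN 2, and the DMSO values rest on 7 to 16 reads. EGR1 rose by 3.08 ± 0.57 on the log2 scale in CDSUM (8.44-fold, adjusted p = 0.000682), by 1.53 ± 0.59 in CDWIN (adjusted p = 0.0448) and by 1.92 ± 0.58 in CQSUM (adjusted p = 0.0172). The CDWIN call held in 17 of 23 alternative settings (adjusted p 0.00149 to 0.201) and was lost without CDWIN 1, CDWIN 3, CQSUM 3, DMSO 1 or DMSO 3 and with the length trend removed. The CQSUM call held in 20 of 23 (adjusted p 4.67e-05 to 0.0735) and was lost without CQSUM 3, DMSO 1 or DMSO 3. The CQWIN difference of 1.54 ± 0.59 was of the same size as in CDWIN but missed the threshold (adjusted p = 0.0578). With CQWIN 2 left out it was 2.08 and passed (adjusted p = 0.0157, range over 23 alternative settings 0.00221 to 0.301), and it was called in 7 of the 23. With CDSUM 3 left out the CDSUM value of EGR1 was 2.40 (adjusted p = 0.00438, range 1.29e-14 to 0.00534). The promoter of EGR1, chr5:138465229-138465528 on the plus strand, is shown because, of 8 members with promoter sequence, only EGR1 had the CArG boxes that serum response factor binds. The capitals mark both boxes, CCATATTAGG at 105 bases and CCATATATGG at 83 bases before the start.
EGR1: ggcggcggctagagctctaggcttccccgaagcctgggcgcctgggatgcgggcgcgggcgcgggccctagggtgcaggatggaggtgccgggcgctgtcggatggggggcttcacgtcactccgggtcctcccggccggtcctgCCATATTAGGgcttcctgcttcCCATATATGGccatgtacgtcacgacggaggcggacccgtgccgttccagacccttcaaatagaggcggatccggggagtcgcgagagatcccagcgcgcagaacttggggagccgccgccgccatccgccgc

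IER3 (ENSG00000137331, chromosome 6, 30743199 to 30744554, minus strand), whose protein acts on apoptosis and on NF-κB and MAP kinase signalling, had by far the most reads of the members that rose. It gave 319.3, 288.9 and 364.1 CPM in CDSUM, 339.8, 267.4 and 247.9 in CDWIN, 243.3, 244.2 and 231.7 in CQSUM and 231.2, 207.7 and 196.6 in CQWIN, against 78.1, 95.8 and 83.6 in DMSO. Every exposed library was at more than 2-fold the highest DMSO library. IER3 rose by 1.92 ± 0.15 on the log2 scale in CDSUM (3.78-fold, adjusted p = 1.21e-06), by 1.73 ± 0.15 in CDWIN (adjusted p = 1.49e-06), by 1.48 ± 0.15 in CQSUM (adjusted p = 8.2e-06) and by 1.30 ± 0.15 in CQWIN (adjusted p = 2.18e-05). IER3 is the shortest member at 1356 bases, and with the GC and length trends removed its log2 fold changes were 1.40 in CDSUM, 1.503 in CDWIN, 1.46 in CQSUM and 1.38 in CQWIN, all called and closer to each other than without the correction. Of its exonic bases 359 overlap the antisense gene IER3-AS1, which had 0 to 5 reads per library.

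Per length the 10 genes fell into 2 tiers that were the same in all groups. IER3, JUNB, JUND, FOSL2, FOSL1 and JUN averaged between 11.2 and 247.4 FPKM in the exposed groups and between 18.2 and 59.4 FPKM in DMSO. ATF3, FOS, EGR1 and FOSB averaged between 0.269 and 2.99 FPKM in the exposed groups and between 0.0875 and 0.455 FPKM in DMSO. In DMSO the order was IER3 at 59.4 ± 8.5, JUNB at 56.8 ± 9.9, JUND at 50.3 ± 9.7, FOSL2 at 28.02 ± 0.63, FOSL1 at 19.2 ± 2.2, JUN at 18.2 ± 0.7, ATF3 at 0.455 ± 0.141, FOS at 0.418 ± 0.161, EGR1 at 0.175 ± 0.085 and FOSB at 0.0875 ± 0.0465 FPKM (SD, n = 3). The first 3 did not differ beyond their spread, nor did FOSL1 and JUN, ATF3 and FOS, or EGR1 and FOSB. In each exposed group IER3 came first, at 152.3 to 247.4 FPKM on average, followed by JUNB and then JUND, and FOSL2 averaged less than FOSL1 and JUN, at 11.2 to 15.2 FPKM on average against 15.3 to 28.9 FPKM for the other pair. RNA from whole cultures was measured, so more transcript in every cell and more cells that hold the transcript cannot be told apart.

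Between the PM2.5 codes the 10 genes differed little beyond the spread of the libraries. In CDWIN against CDSUM 2 of the 10 were called, both lower. Of all 15565 genes tested 8.42% were called in either direction, 1272 higher and 38 lower. ATF3 fell by 1.21 ± 0.33 on the log2 scale (95% interval −1.90 to −0.52, adjusted p = 0.0272), and its 3 CDWIN libraries were all below the 3 CDSUM libraries. JUNB fell by 0.50 ± 0.15 (95% interval −0.82 to −0.18, adjusted p = 0.0493), again with no overlap. With CDSUM 3 left out the ATF3 value was −0.79 (adjusted p = 0.225) and the JUNB value was −0.44 (adjusted p = 0.191), so neither call held. The ATF3 call was also lost with CDWIN 2 (−1.07) or CDWIN 3 (−1.05) left out, and the JUNB call with CDWIN 3 left out (−0.40). Over 24 alternative settings the adjusted p ran from 2.98e-05 to 0.225 for ATF3, called in 20, and from 0.0059 to 0.258 for JUNB, called in 12. EGR1 differed by −1.55 ± 0.51, FOS by −1.18 ± 0.48 and FOSB by −1.09 ± 0.45 on the log2 scale, and none of these passed (adjusted p = 0.074, 0.172 and 0.185). DESeq2 called 3 members here, ATF3, JUNB and EGR1.

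In CQWIN against CQSUM no member was called, where the background was 0.0193% of all genes. JUNB was the nearest, with 92.1, 93.0 and 76.1 CPM in CQWIN, against 136.8, 119.4 and 120.5 in CQSUM, which did not overlap. Its log2 difference of −0.53 ± 0.15 was as large as in CDWIN against CDSUM, but it failed the correction (adjusted p = 0.994). At an unadjusted p under 0.05 2 members, JUNB and ATF3, differed, and DESeq2 called 0. The interaction, which sets the WIN over SUM difference of the CD codes against that of the CQ codes, was 0.03 ± 0.21 for JUNB (95% interval −0.42 to 0.48) and −0.39 ± 0.47 for ATF3 (95% interval −1.37 to 0.60). No member was called for the interaction, with a background of 2.02%, and 0 members had an unadjusted p under 0.05 or were called by DESeq2.

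In CDSUM against CQSUM no member was called, with a background of 13.9%, although 3 had an unadjusted p under 0.05. IER3 was higher by 0.44 ± 0.15 on the log2 scale, with no overlap between the groups (adjusted p = 0.0605), and DESeq2 called it alone. ATF3 differed by 0.84 ± 0.32 (adjusted p = 0.108) and EGR1 by 1.16 ± 0.50 (adjusted p = 0.163), and both have their highest CDSUM value in CDSUM 3. In CDWIN against CQWIN no member was called either, with a background of 0.0128%. At an unadjusted p under 0.05 2 members differed, IER3 by 0.43 ± 0.15 (adjusted p = 0.26) and FOSL1 by 0.51 ± 0.21 (adjusted p = 0.284), and DESeq2 called 0.

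The variation among replicates was shared by several members. CDSUM 3 held the highest value of its group for all 10 genes, in CPM, in FPKM and in raw counts alike. The ratio of the highest to the lowest CDSUM library was 3.22 for EGR1, 2.98 for FOSB, 2.48 for FOS and 2.18 for ATF3, and 1.16 to 1.35 for the other 6. CQWIN 2 held the lowest value of all 12 exposed libraries for FOS, FOSB, ATF3 and EGR1, and the CQWIN ratio was 4.91 for FOS, 4.74 for EGR1, 4.02 for FOSB and 1.78 for ATF3. IER3, in contrast, varied within CQWIN by a ratio of 1.18. The 4 genes with low counts thus had their lowest CQWIN value in the same library, whereas IER3 was lowest in CQWIN 3 and FOSL2 in CQWIN 1.

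**Figure D4:**
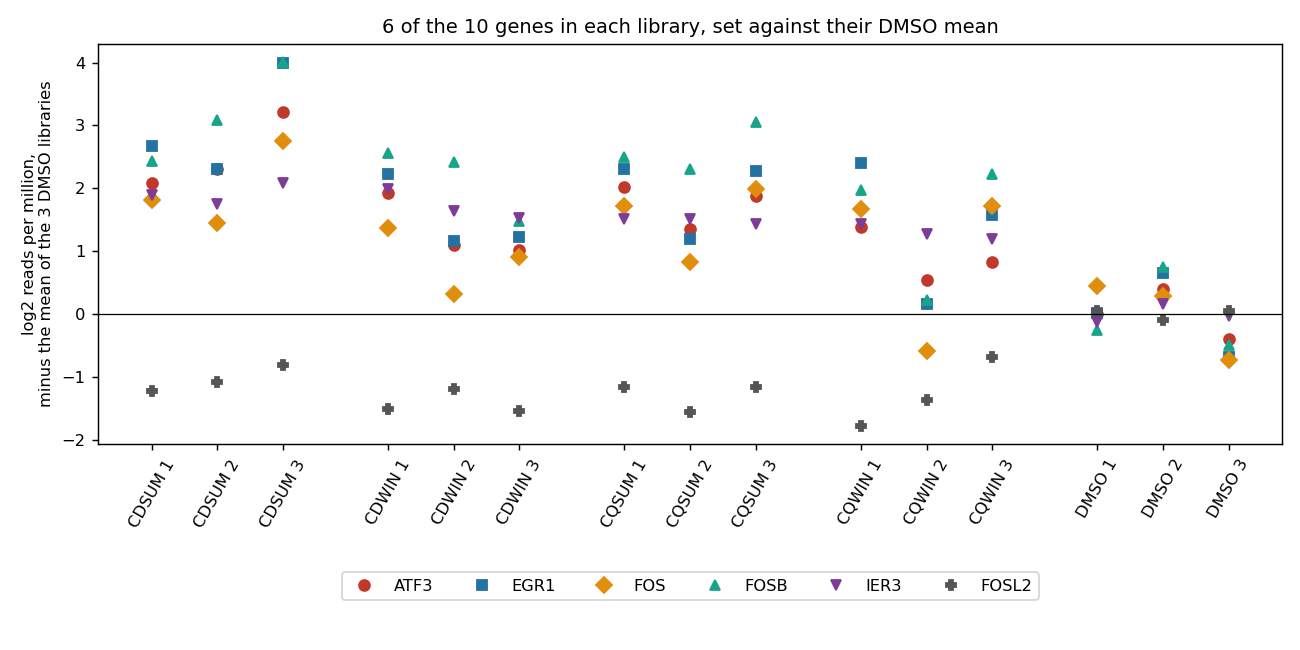
Log2 CPM of ATF3, EGR1, FOS, FOSB, IER3 and FOSL2 in each library, less the mean of the 3 DMSO libraries, with the PM2.5 groups left of DMSO. ATF3, EGR1, FOS and FOSB peak together in CDSUM 3 and, at 0.912, 0.557, 2.79 and 0.608 CPM for FOS, FOSB, ATF3 and EGR1, are at their lowest exposed level in CQWIN 2.

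Likeness between genes was measured as the root mean square difference of their log2 CPM over the 15 libraries, each gene centred on its own mean, among 13007 genes. The nearest gene to FOS was EGR1, at 0.385 log2 units, and next came ATF3, at 0.488. ATF3 and EGR1 were nearest to each other, at 0.339, and the nearest gene to FOSB was ATF3, at 0.438. The genes' own root mean square spreads over the libraries were 0.897 for FOS, 1.14 for FOSB, 0.902 for ATF3 and 1.08 for EGR1. The second nearest gene to ATF3 was DDIT3, the stress factor CHOP, at 0.41. FOSL1 was nearest to RELB, a subunit of NF-κB, at 0.204, followed by the small MAF factor MAFF, at 0.234, with its own spread at 0.352. FOSL2 was nearest to SRRT, at 0.121, and ZC3H18, at 0.121, both of which act on nuclear RNA, against its own spread of 0.569. JUN was nearest to CYTH1, at 0.138, JUNB to BBC3, the p53 target PUMA, at 0.142, JUND to PLPP2, at 0.0867, and IER3 to HSD17B14, at 0.22. Since the exposed libraries are 12 of the 15, these distances also contain the difference from DMSO.

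Of the 10 genes, 8 matched the RefSeq promoter table by symbol. ATF3 had 2 windows there, chr1:212565157-212565456 and chr1:212614768-212615067. Matches are counted here per gene for the members and per promoter for the background. Besides the boxes printed above, JUND held the cyclic AMP response element TGACGTCA 200 bases before its start. Both strands were searched. The AP-1 element TGANTCA was found in 7.71% of all 35116 promoters of this length, TGACGTCA in 1.85% and the CArG box in 1.29%. The GCGTG core was found in 4 of the 8, FOS, FOSB, JUN and JUNB, and in 36.5% of all promoters. The EGR element GCGGGGGCG, in 5.07% of all promoters, and the kappa B element, in 11.3%, matched none of the 8, which says only that these letters are not in these windows. In the annotation JUN, JUNB, JUND and IER3 have 1 exon each, EGR1 has 2, and the others have 4. The pentamer AUUUA, a part of the elements that speed the decay of mRNA, occurred 6 times in the 3′ untranslated region of IER3 and 5 times in that of FOS, or 6.64 and 6.2 times per kilobase, against a median of 1.63 per kilobase over 12946 coding genes. It occurred 0.81 times per kilobase in EGR1, 1.39 times in FOSB and 1.85 times in FOSL2, where there were 9 copies.

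Other immediate early and early response genes were more often lower than higher, as were all genes tested with TMM scaling. Of 33 on the list, which leaves out the 10 genes above, 29 were tested. In CDSUM 2 were higher and 12 lower, in CDWIN 0 were higher and 15 lower, in CQSUM 1 was higher and 11 lower, and in CQWIN 1 was higher and 14 lower. Of all genes tested 31.2% were called lower in CDSUM, 23.3% in CDWIN, 18.8% in CQSUM and 15.8% in CQWIN. The list's median log2 fold change was −0.42 in CDSUM, −0.64 in CDWIN, −0.41 in CQSUM and −0.49 in CQWIN, each below the median of all genes given above. ARC, called lower under all 4 codes, averaged 0.312, 0.273, 0.26 and 0.278 CPM in CDSUM, CDWIN, CQSUM and CQWIN, against 0.989 in DMSO. These exposed means are under the filter's level of 0.54 CPM. ARC thus passed the filter through DMSO, where it is high, and the counts and medians over this list include it. ZFP36L2, which encodes a protein that binds AU-rich mRNA and promotes its decay, fell by 1.19 ± 0.23 in CDSUM, to 11.99 ± 1.69 CPM, against 27.3 ± 3.1 in DMSO (adjusted p = 0.000824). NR4A1, an orphan nuclear receptor induced along with FOS in many cells, averaged 7.68 ± 1.91 CPM in CQWIN and 22.4 ± 4.3 in DMSO, and fell by 1.55 ± 0.28 on the log2 scale (adjusted p = 0.000817). IER5L fell by 1.31 ± 0.19 in CQSUM (adjusted p = 0.000171), and CTGF, a target of serum response and YAP signalling, fell by 1.32 ± 0.30 in CDWIN (adjusted p = 0.00214). BTG1, an antiproliferative gene, rose by 0.66 ± 0.14 in CDSUM (adjusted p = 0.00172), and NR4A2 rose by 1.11 ± 0.38 there (adjusted p = 0.0247).

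Among 16 other AP-1 related genes of the basic leucine zipper class, 14 were tested. There were 4 higher and 3 lower in CDSUM, 2 higher and 4 lower in CDWIN, and 1 higher and 3 lower in both CQSUM and CQWIN, counts to be read against the shares of all genes given for each code above. MAF, called higher in CDSUM and CQWIN, averaged 0.36 CPM in DMSO, under the filter's level of 0.54 CPM. It passed the filter only through exposed groups, and it is the only gene of this list called higher in CQWIN. MAFK, a small MAF protein that pairs with NRF2, fell by 0.58 ± 0.18 in CDSUM (adjusted p = 0.012) and by 1.34 ± 0.18 in CQWIN (adjusted p = 9.24e-05). ATF5 fell by 0.67 ± 0.16 in CDSUM and by 0.88 ± 0.16 in CQSUM. BATF3, a partner of JUN proteins, rose by 0.88 ± 0.20 in CDSUM and by 0.90 ± 0.20 in CDWIN, and ATF4, the effector of the integrated stress response that acts upstream of ATF3, rose by 0.75 ± 0.16 in CDSUM (adjusted p = 0.00161) and by 0.51 ± 0.16 in CDWIN (adjusted p = 0.0179).

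Upstream of AP-1 and EGR1, 31 kinases and activators were tested. In CDSUM 1 was higher and 16 lower, in CDWIN 2 were higher and 11 lower, in CQSUM 4 were higher and 7 lower, and in CQWIN 3 were higher and 7 lower. Of all genes tested 31.2%, 23.3%, 18.8% and 15.8% were called lower under these codes, so that 7 of 31 is near the background. MAPK8, which encodes the JUN kinase JNK1, rose under all 4 codes, by 0.50 ± 0.18 in CDSUM, 0.74 ± 0.18 in CDWIN, 0.78 ± 0.18 in CQSUM and 0.62 ± 0.18 in CQWIN. MRTFA, a coactivator of serum response factor, fell under all 4 codes, by between 1.05 ± 0.23 in CDSUM (adjusted p = 0.00151) and 1.22 ± 0.23 in CQSUM (adjusted p = 0.000949). SRF itself, which binds CArG boxes such as those of EGR1, fell in CDWIN, CQSUM and CQWIN, by 0.76 ± 0.17 in CQWIN (adjusted p = 0.00294). RPS6KA3, a kinase downstream of ERK, fell by 1.63 ± 0.33 in CDSUM (adjusted p = 0.00109).

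All 17 MAP kinase phosphatases and other feedback genes were tested, with 1 higher and 2 lower in CDSUM, 0 higher and 5 lower in CDWIN, 3 higher and 3 lower in CQSUM, and 3 higher and 5 lower in CQWIN. The 2 lower in CDSUM are a smaller share than the 31.2% of all genes called lower there, and the other counts are likewise to be read against the shares of all genes. DUSP1, an early response phosphatase that acts on p38 and JNK, averaged 59.3 ± 3.7 CPM in CDWIN and 135.9 ± 23.6 in DMSO, and fell by 1.20 ± 0.24 (adjusted p = 0.00103). DUSP6, which acts on ERK, rose by 0.93 ± 0.29 in CDSUM (adjusted p = 0.0146) and by 1.54 ± 0.29 in CQWIN (adjusted p = 0.00112). NAB1 and NAB2 encode corepressors of EGR1, and in CQSUM NAB1 rose by 0.62 ± 0.17 while NAB2 fell by 0.53 ± 0.17. Of 7 genes for the turnover of AP-1 proteins 6 were tested. In CDSUM 0 were higher and 5 lower, in CDWIN 0 were higher and 2 lower, and in CQSUM and CQWIN 1 was higher and 1 lower in each. Of all genes tested 31.2% were called lower in CDSUM, 23.3% in CDWIN, 18.8% in CQSUM and 15.8% in CQWIN. With 6 genes, the counts outside CDSUM are near these shares. FBXW7, which marks JUN for degradation, fell by 1.26 ± 0.35 in CDSUM (adjusted p = 0.0072). ITCH, another JUN ligase, fell by 0.96 ± 0.18 in CDSUM (adjusted p = 0.000802) and rose by 0.57 ± 0.18 in CQWIN (adjusted p = 0.0242).

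Textbook AP-1 target genes were more often higher than lower. Of all genes tested 15.3% were called higher in CDSUM, 18.4% in CDWIN, 13.7% in CQSUM and 11.6% in CQWIN. Of 32 on the list 28 were tested, with 13 higher and 2 lower in CDSUM, 13 higher and 4 lower in CDWIN, 12 higher and 2 lower in CQSUM, and 11 higher and 3 lower in CQWIN. The median log2 fold change of the list was 0.49 in CDSUM, 0.41 in CDWIN, 0.44 in CQSUM and 0.49 in CQWIN. The largest rises were in cytokine genes, which other factors such as NF-κB also drive. CXCL8, the neutrophil chemokine IL-8, averaged 667.6 ± 120.1 CPM in CDSUM and 97.8 ± 12.3 in DMSO and rose by 2.77 ± 0.26 (adjusted p = 3.8e-06), and IL1B rose by 2.83 ± 0.40 in CDSUM (adjusted p = 0.000146). MMP1, the interstitial collagenase with a classic AP-1 element in its promoter, averaged 1.501 ± 0.221 CPM in CDSUM and 0.218 ± 0.114 CPM in DMSO and rose by 2.74 ± 0.79 (adjusted p = 0.00937). Its DMSO level is under the filter's level of 0.54 CPM, so MMP1 passed the filter only through exposed groups. The size of its fold is uncertain, and the counts over this list include it. CCND1, the cyclin that JUN proteins are known to control, fell under all 4 codes, by 1.21 ± 0.17 in CDSUM, 1.46 ± 0.17 in CDWIN, 1.28 ± 0.17 in CQSUM and 1.30 ± 0.17 in CQWIN. FN1 fell by 1.41 ± 0.29 in CDSUM (adjusted p = 0.00121) and by 0.97 ± 0.29 in CQWIN (adjusted p = 0.0182).

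**Figure D5:**
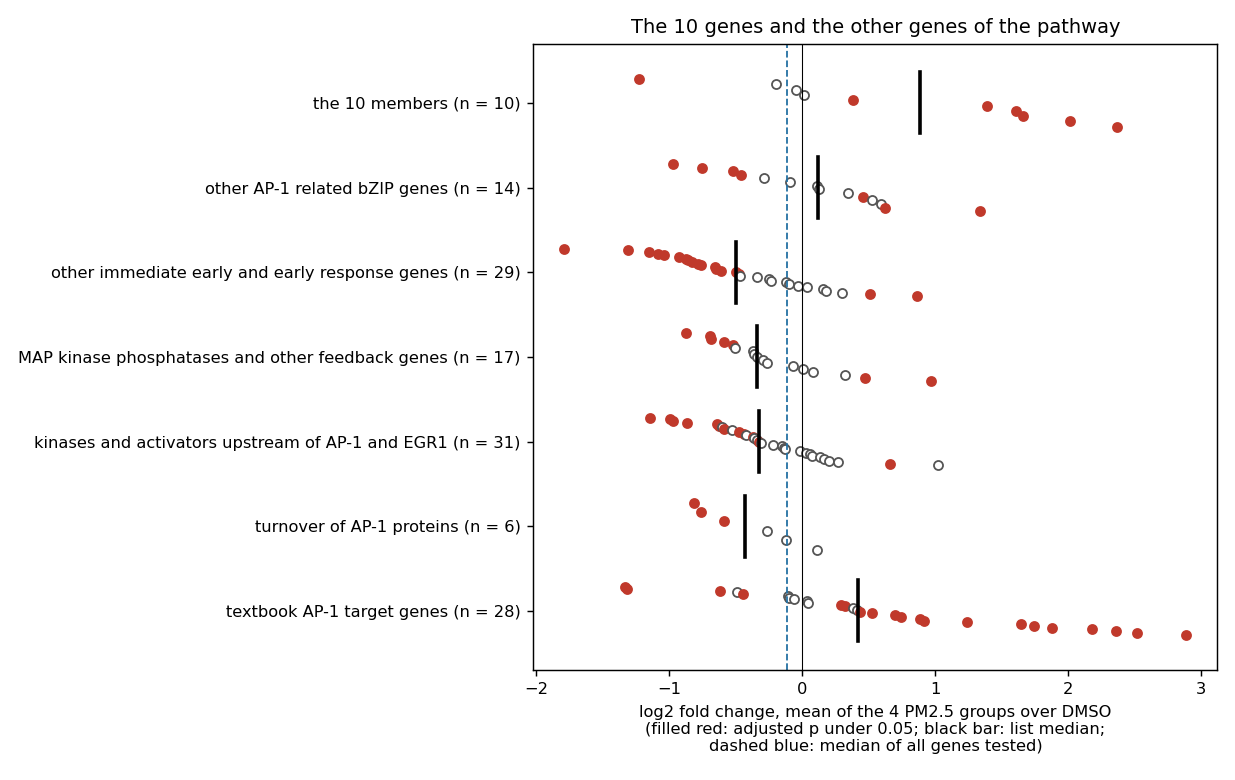
Log2 fold change of the mean of the 4 PM2.5 groups over DMSO for the 10 genes and for each list of related genes, with filled points for an adjusted p under 0.05, bars for list medians and a dashed line for the median of all genes tested. The list medians run from −0.49 for the other early response genes to 0.42 for the AP-1 targets, against −0.11 for all genes.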

How the data were processed

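Total RNA of 15 A549 libraries was sequenced, 3 for each PM2.5 code and 3 for DMSO. The deposited table holds whole-number read counts per gene and FPKM values by the authors, and its 58735 gene identifiers, starts and ends equal those of GENCODE 29 on GRCh38. The submitters' processing notes name the mouse builds GRCm38 and mm10, and the labels' protocols and design text name different library kits. The aligner, the counter and its use of strand are not given in the sources used here. Libraries held 17583532 to 19216323 counts, and the precision of low genes is limited by counts as small as 7 reads.

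Counts were tested with edgeR 4.0.16 (R 4.3.3): filterByExpr, which left 15565 genes, TMM scaling, and a quasi-likelihood F test with 1 mean per group over all 15 libraries, so that the groups share 1 estimate of the spread. P-values were adjusted by Benjamini-Hochberg over all genes tested, and a gene was called at an adjusted p under 0.05. SEs were taken from the fold change and its F statistic. CPM values are TMM-scaled, and FPKM was used only to compare levels between genes, since the library sizes it implies differ from the count totals. The fit was also run on simulated counts with known changes in CDSUM alone. That simulation had far fewer changed genes than were called here, and no length or GC trend. It therefore cannot show how the fit behaves under those conditions. Alternatives were DESeq2 1.42.0 and its size factors, no filter and a filter of 5 CPM in 3 libraries, only the groups compared, length and GC trends removed, a replicate block, and each library left out. Same-numbered libraries deviated together in all 3 pairs, by a correlation over 0.1, only between CQSUM and DMSO. Promoters are from RefSeq (GRCh38.p14). The members, lists and tests were chosen with earlier results of these data known. Of each list, up to 3 called genes with the largest change in each direction and comparison could be named, and the examples in the text are a choice among these.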

Additional observations from a re-analysis of the deposited data

Results flagged for a closer look

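ATF3 and JUNB differed between PM2.5 exposures by a direct test. ATF3 had 7.27, 4.08 and 3.88 CPM in CDWIN, against 8.08, 9.47 and 17.6 in CDSUM, a log2 difference of −1.206. JUNB had 89.1, 106.6 and 78.9 CPM in CDWIN, against 127.6, 120.7 and 139.5 in CDSUM, a log2 difference of −0.498. Neither pair of groups overlapped, and both calls were lost without CDSUM 3. The part of that library in the result beyond this was not tested.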

How the results depend on the processing

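Alternatives were run for the 10 members, and none of their called fold changes changed sign. With the length trend removed 5 were higher and 2 lower in CDSUM and in CQSUM, 3 higher and 3 lower in CDWIN, 3 higher and 2 lower in CQWIN, and 5 higher and 3 lower for the mean of the 4 groups. Without CDWIN 2 and CQWIN 3, 2 were lower than DMSO in CDWIN, FOSL2 and JUNB, and 2 in CQWIN, FOSL2 and FOSL1. Of 10 genes, 5 were called in CDWIN against DMSO, and 3 with the filter of 5 CPM, which removes FOSB and EGR1. In CQWIN against DMSO 3 were called, and 5 with the size factors of DESeq2, 6 with no filter, 5 with the length trend removed and 6 with DESeq2. In CDWIN against CDSUM 2 were called, and 6 with no filter, 4 with only the groups compared, and 1 each with the length trend removed, with the GC and length trends removed, and without CDWIN 2 and CQWIN 3. In CDSUM against CQSUM 0 were called, and 4 with no filter and 1 each with the size factors of DESeq2, the filter of 5 CPM, only the groups compared, without CDWIN 2 and CQWIN 3, and DESeq2. The cause was not tested.

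With each library left out in turn, 6 to 9 members were called in CDSUM, 4 to 5 in CDWIN, 4 to 8 in CQSUM and 2 to 6 in CQWIN, all against DMSO, and 5 to 7 for the mean of the 4 groups. The lowest CQSUM count, 4, came without CQSUM 3 or DMSO 3, and the highest CQWIN counts were 6 without CQWIN 2 and 5 without CDSUM 3. The count was 0 to 3 in CDWIN against CDSUM, with 0 without CDSUM 3 or CDWIN 3, 0 to 1 in CDSUM against CQSUM and 0 to 1 in CDWIN against CQWIN, where IER3 was called without CQWIN 1.

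A replicate block gave the same number of members called in all 10 comparisons, 7, 5, 7 and 3 of them in CDSUM, CDWIN, CQSUM and CQWIN against DMSO. Deviations from the group means correlated over 0.1 in 11 of 30 pairs of libraries with the same number (median 0.0496) and in 11 of 60 pairs with other numbers (median −0.0277). Only between CQSUM and DMSO was every same-number correlation over 0.1, at 0.191, 0.395 and 0.115, and there the block gave the same count, 7. FOS, FOSB, EGR1 and ATF3 are limited by depth, with 7 to 47 reads per DMSO library.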
